A study of Mus musculus with 12 samples.

Results

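The 37 genes described here encode proteins of synaptic vesicles and dense-core vesicles, and were taken by symbol from the 32289 features counted in every library. By role, 9 encode SNARE proteins and the proteins that clamp or disassemble them, 6 encode synaptotagmins, 8 encode vesicle membrane or surface proteins, 7 encode Rab3 GTPases or proteins of the active zone and of priming, 2 act in endocytosis and 5 encode granins or related dense-core vesicle proteins. All 37 were found, on 18 chromosomes. Together they held 265613 of the 31109910 unique molecular identifiers (UMIs, 1 per captured RNA molecule) in cells, or 0.854%, from 49 UMIs for Synpr to 73686 for Sncg.

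Neurons release transmitters from small synaptic vesicles and peptides or catecholamines from dense-core vesicles. In both, a vesicle SNARE (a VAMP) pairs with the membrane SNAREs syntaxin-1 and SNAP25, synaptotagmins sense calcium, complexins clamp the assembled SNAREs, and NSF with its SNAP adaptors takes them apart after fusion. Granins are the acidic proteins that condense in dense-core granules, and chromogranin A is a widely used marker of neuroendocrine tumours, neuroblastoma included.

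The superior mesenteric ganglion (SMG), a sympathetic ganglion in which neuroblastoma arises in Th-MYCN mice, was measured by droplet single-cell RNA sequencing (scRNA-seq) in 12 mice of strain 129+Ter/SvJcl, 1 library per mouse. The mice were 1 wild-type (WT) mouse aged 3 weeks, 10 hemizygous Th-MYCN+/- mice aged 3 weeks (#1 to #10), and 1 hemizygous Th-MYCN+/- mouse aged 6 weeks whose ganglion was chosen because it carried a visible tumour. The transgene places human MYCN under the rat tyrosine hydroxylase promoter, so that expression is driven in sympathetic cells. The libraries held 1147772 UMIs (WT), 4824039 UMIs (6 weeks) and 1444554 to 6388766 UMIs (3 weeks), and 12024 barcodes were kept as cells.

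Cells were grouped without the 37 genes, without 111 further vesicle genes and without the transgene, so that these genes did not define the groups. The classes of interest were neuroblast-like (3050 cells, median 4425.5 UMIs per cell), ganglion-like (2734 cells, median 1150 UMIs) and Schwann-like (2898 cells, median 942.5 UMIs). Transgene RNA (H_MYCN) reached 322 ± 166 UMIs per 1000000 UMIs of the class (CPM, mean ± SD over the 10 mice at 3 weeks) among neuroblast-like cells, 2.26 ± 3.04 CPM in ganglion-like cells and 19.6 ± 44.4 CPM in Schwann-like cells. A further 2216 mostly shallow cells had too few markers for a name and entered no comparison. Library #2 stood apart. It had 38.8% of its UMIs in cells, 1505 of the ganglion-like cells, but 43 neuroblast-like cells with 32365 UMIs in all and 8 Schwann-like cells with 4359 UMIs, so that a single UMI in its Schwann-like sum was worth 229 CPM. The results below are therefore also given without it where it matters. The 12 libraries shared 94 barcodes over all 66 pairs of libraries, against 88.8 expected by chance.

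As a group the vesicle genes were a ganglion neuron feature. In the ganglion-like cells of the 10 mice at 3 weeks, the lowest summed level of all 37 was 15970.7 CPM (#8), the median 18721.2 CPM and the highest 20911.6 CPM (#7), or 18581 ± 1385 CPM (mean ± SD, n = 10). In neuroblast-like cells the lowest was 3049.7 CPM (#1), the median 3547.8 CPM and the highest 5056.6 CPM (#10). Schwann-like sums ran from 1464.3 to 2626.4 CPM in 9 mice and reached 4358.8 CPM, from 19 UMIs, in #2. Every ganglion-like value lay above every value of the other 2 classes, and neuroblast-like and Schwann-like values overlapped only through #2. The summed level was 719 ± 372 CPM in endothelial-like and 517 ± 423 CPM in macrophage-like cells, 2 classes outside the neural lineage. γ-Synuclein (Sncg) alone held a large share, and without it the sums of the other 36 genes had medians of 12842.4 CPM (ganglion-like) and 3310.23 CPM (neuroblast-like).

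**Figure D1:**
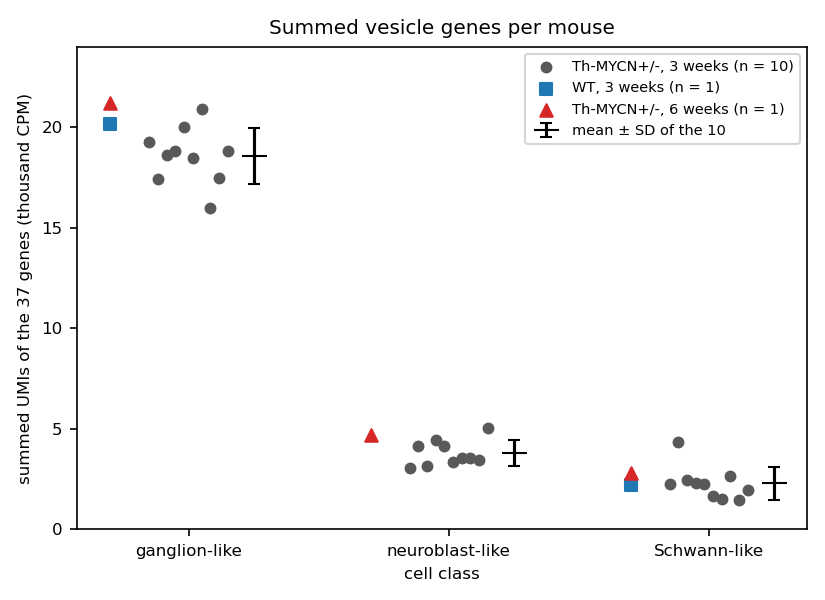
Summed level of the 37 vesicle genes (vertical axis, CPM in units of 1000) by cell class; points are mice and bars the mean ± SD of the 10 mice at 3 weeks, with the WT mouse as a square and the 6-week-old mouse as a triangle (WT neuroblast-like cells are not drawn). The 10 ganglion-like values sit between 15970.7 and 20911.6 CPM, above all neuroblast-like and Schwann-like values.

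Gene by gene, 33 of the 37 had their highest mean level in ganglion-like cells over the 10 mice. The share of all genes that were highest in ganglion-like cells was not computed, so this count is a description only. Synpr (synaptoporin) and Chga (chromogranin A) were highest in neuroblast-like cells, Scg3 (secretogranin III) in Schwann-like cells, and Napa (α-SNAP) in the small NKT-like class. That class held 43 cells from 9 of the 12 mice, so its mean rests on fewer than 10 mice. The lead over the next class was narrow for Nsf (1.08 times the endothelial-like mean) and Vamp1 (1.03 times the Schwann-like mean). In that Schwann-like mean of Vamp1, 1 UMI of #2 counted as 229 CPM. The same genes led the same classes without #2. With the UMIs of all cells of the 12 mice summed, Napa was instead highest in ganglion-like cells and Vamp1 in macrophage-like cells. Synpr was near the limit of detection, at 2.48 ± 2.81 CPM in neuroblast-like and 2.01 ± 2.79 CPM in ganglion-like cells, with no UMI in 2 and 6 of the 10 mice, and is not described further.

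**Figure D2:**
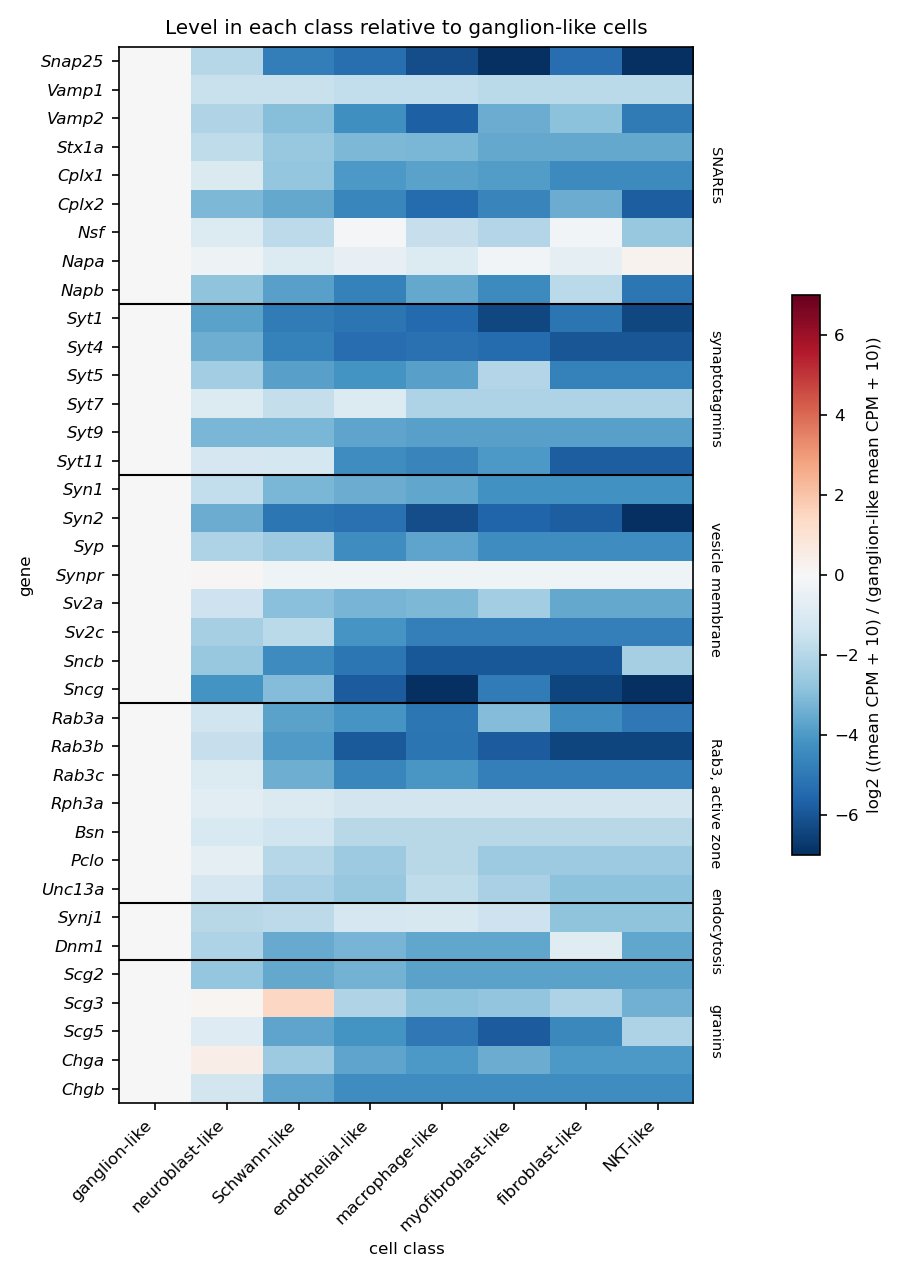
Mean level of each of the 37 genes (rows, by role) in each cell class (columns) as a log2 ratio to its ganglion-like level, with 10 CPM added to both (3-week-old Th-MYCN+/- mice without #2; blue lower, red higher). Nearly all squares are blue, and Chga and Synpr in neuroblast-like cells, Scg3 in Schwann-like cells and Napa in NKT-like cells are red.

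The difference was also seen cell by cell at equal depth. Cells with at least 500 UMIs were thinned to 500 UMIs, and shallower cells were left out, which kept 2222 of 2734 ganglion-like, 2919 of 3050 neuroblast-like and 2320 of 2898 Schwann-like cells. Shares of cells, here and below, pool the cells of all 12 mice. Before thinning #2 supplied 1505 of the 2734 ganglion-like cells, and shares without it are not given. A median of 5 of the 37 genes was then detected in each ganglion-like cell, and 68.5% of these cells held 5 or more. The median was 1 gene in neuroblast-like cells, of which 20.8% held none, and 1 in Schwann-like cells, of which 40.6% held none. In endothelial-like (median 1061 UMIs per cell before thinning) and macrophage-like cells (median 1016 UMIs), taken as the background of free RNA, 71.6% and 79.5% of cells held none. Snap25, the membrane SNARE, had a UMI in 50.4% of ganglion-like cells (71.9% before thinning), 14.6% of neuroblast-like cells (62.3% before thinning) and 1.21% of Schwann-like cells, against 0.536% of endothelial-like cells.

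To ask which vesicle genes separate ganglion neurons from the neuroblasts of the same ganglion, UMIs were summed per mouse and class and compared within the 10 mice at 3 weeks. Of the 37 genes, 35 had enough UMIs to be tested (not Synpr and Rph3a). The ganglion-like level was higher for 33 of them, lower for Chga and not different by this test for Scg3 (edgeR quasi-likelihood test, false discovery rate, FDR, below 0.05). Among all 7066 genes tested, 67.9% were called, 33.7% higher and 34.2% lower. The median log2 fold change was 2.02 over the 35 genes and -0.03 over all genes tested. Genes pass the filter on low counts through the class in which they are high, so the count over those that passed is a description only. Without that filter 32 of all 37 were higher, 1 lower and 4 not called, where 18.4% of 19118 genes were higher and 23.1% lower. Without #2 it was 31 higher, 1 lower and 2 not called, of 34 tested, against 31.7% higher and 37.1% lower over all genes.

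**Figure D3:**
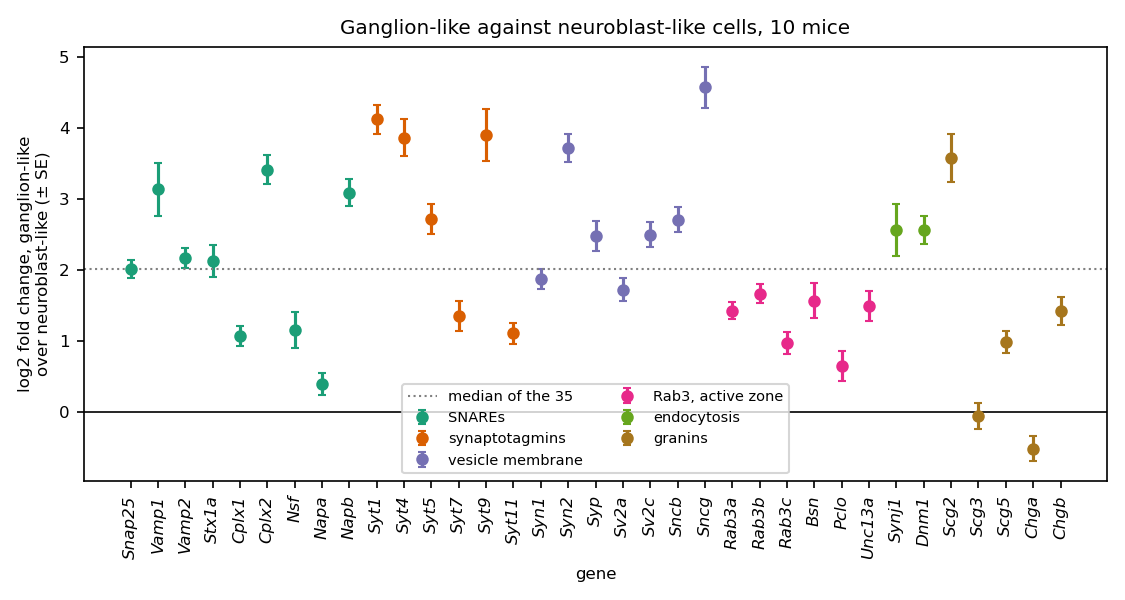
Log2 fold change (vertical axis, ± SE, n = 10 mice) of each of the 35 tested genes between ganglion-like and neuroblast-like cells of the same mice, coloured by role; the dotted line is the median of the 35. Values run from 4.58 (Sncg) to -0.51 (Chga), and all but Chga and Scg3 lie above 0.

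All 9 genes of SNARE assembly and disassembly were higher in ganglion-like cells, with a median log2 fold change of 2.13. Snap25 ranged from 1132.0 to 1969.2 CPM in ganglion-like cells (median 1393.6 CPM) and from 288.0 to 494.4 CPM in neuroblast-like cells (median 332.6 CPM). The 2 classes did not overlap, and the log2 fold change was 2.02 (SE 0.12, FDR 9.1e-12). Vamp2, the main neuronal vesicle SNARE, followed it at 1097 ± 143 against 247 ± 51.0 CPM, a log2 fold change of 2.17 (SE 0.14). The syntaxin gene Stx1a differed by 2.13 and the scarce Vamp1 by 3.14 on the log2 scale. Partner genes with like functions were unequal. The fusion clamp Cplx2 (complexin 2) differed by 3.42 and Cplx1 by 1.07, and the SNAP adaptor Napb (β-SNAP) by 3.10 but Napa by 0.40 (FDR 0.022). Nsf, the ATPase that works with both adaptors, differed by 1.17, but its ganglion-like mean was only 1.08 times the endothelial-like mean. Napa is found in most cells, and here it was at 199 ± 52.8 CPM in endothelial-like cells as well. Its call was lost under 5 of the alternatives tried, among them the fit without #2 (0.31, FDR 0.057).

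The 6 synaptotagmin genes showed the largest median change of any role, 3.30. The calcium sensor Syt1 ran from 371.3 to 1070.5 CPM (median 759.9 CPM) in ganglion-like cells and from 0 to 110.4 CPM (median 40.7 CPM) in neuroblast-like cells. The classes did not overlap, and the log2 fold change was 4.13 (SE 0.20, FDR 1.0e-12). Syt4, a synaptotagmin of dense-core vesicles that lacks normal calcium binding, was at 615 ± 92.6 against 44.9 ± 33.2 CPM (3.87, SE 0.26). Syt9 differed by 3.91 and Syt5 by 2.73, and both carried an outlying ganglion-like value in #7 in which most UMIs came from 1 cell. Syt7, a slow high-affinity sensor, differed by 1.35, and Syt11, which does not bind calcium, by 1.11. Syt11 was present in the neuroblast-like cells of all 10 mice, from 175.7 to 301.8 CPM.

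All 7 tested genes of vesicle membrane and surface proteins were higher, with a median of 2.50. Sncg, a small cytosolic protein abundant in peripheral neurons, had the largest change of the 35, 4.58 (SE 0.29, FDR 1.5e-11). It ran from 2828.0 CPM (#8) to 7383.2 CPM (#7) in ganglion-like cells, with a median of 5943.2 CPM. The paralogue Sncb (β-synuclein) changed by 2.71. The synapsins, which tether vesicles to actin, split in the same manner, with Syn2 at 1207 ± 323 against 98.0 ± 60.2 CPM (3.73, SE 0.20) and Syn1 at 179 ± 34.3 against 49.8 ± 10.4 CPM (1.88, SE 0.14). Synaptophysin (Syp) changed by 2.48, and the transporter-like glycoproteins Sv2a and Sv2c by 1.73 and 2.50.

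The 6 tested genes of Rab3 GTPases, active zone and priming had the smallest median of the roles with no exception to their direction, 1.46. Rab3a, which brings vesicles to release sites, was at 1142 ± 162 CPM in ganglion-like cells and still at 427 ± 53.5 CPM in neuroblast-like cells (1.43, SE 0.12), with ranges of 929.9 to 1364.5 and 368.6 to 520.1 CPM that did not overlap. Rab3b changed by 1.67 and Rab3c by 0.98. The active zone scaffolds Bsn (bassoon) and Pclo (piccolo) changed by 1.57 and 0.66 and the priming factor Unc13a by 1.497, all from low levels, and Pclo lost its call without a filter on low counts (FDR 0.13). Rph3a (rabphilin, a Rab3 effector) was too scarce for the test, at 13.7 ± 5.14 CPM in ganglion-like and 3.81 ± 1.82 CPM in neuroblast-like cells. The endocytosis genes Dnm1 (dynamin 1), which pinches off vesicles, and Synj1 (synaptojanin 1), which sheds their clathrin coat, both changed by 2.56.

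Granins and related dense-core vesicle genes did not follow one course. Scg2 (secretogranin II) changed most, from 0 to 32.2 CPM in neuroblast-like cells and 32.8 to 235.7 CPM in ganglion-like cells, a log2 fold change of 3.58 (SE 0.34, FDR 6.9e-09). Chgb (chromogranin B) changed by 1.42 (SE 0.20) and Scg5, the chaperone of prohormone convertase 2, by 1.00 (SE 0.15). Chga went the other way. It ran from 76.6 CPM (#6) to 267.6 CPM (#3) in ganglion-like cells, with a median of 157.3 CPM, and from 166.5 CPM (#3) to 294.5 CPM (#8) in neuroblast-like cells, with a median of 221.6 CPM. The ranges overlapped, but within 9 of 10 mice the ganglion-like value was the lower (log2 fold change -0.51, SE 0.17, FDR 0.013). When cells of at least 500 UMIs were thinned to that depth, which kept 2222 of 2734 ganglion-like cells, the Chga difference was -0.22 (FDR 0.49), which was not called. Chga was also uneven among the ganglion-like clusters of the same 9 mice, at 434 ± 278 CPM in the shallow cluster (median 515 UMIs per cell) and 180 ± 221 CPM in the deep cluster (median 14236 UMIs), higher in the shallow cluster in 8 of 9 mice. The mean of the shallow cluster lay above the neuroblast-like mean of 221 CPM. These means come from 9 and 10 mice, so the direction given for the class may not hold in all of its clusters. Pnmt, a marker of adrenaline-producing chromaffin cells, was at 55.0 ± 24.9 CPM in neuroblast-like and 4.15 ± 3.60 CPM in ganglion-like sums, and its part in the Chga difference was not tested. Scg3, which carries chromogranin A into granules, was at 95.9 ± 28.3 against 99.6 ± 21.8 CPM (-0.05, SE 0.19, FDR 0.83), and higher in ganglion-like cells in 6 of 10 mice.

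**Figure D4:**
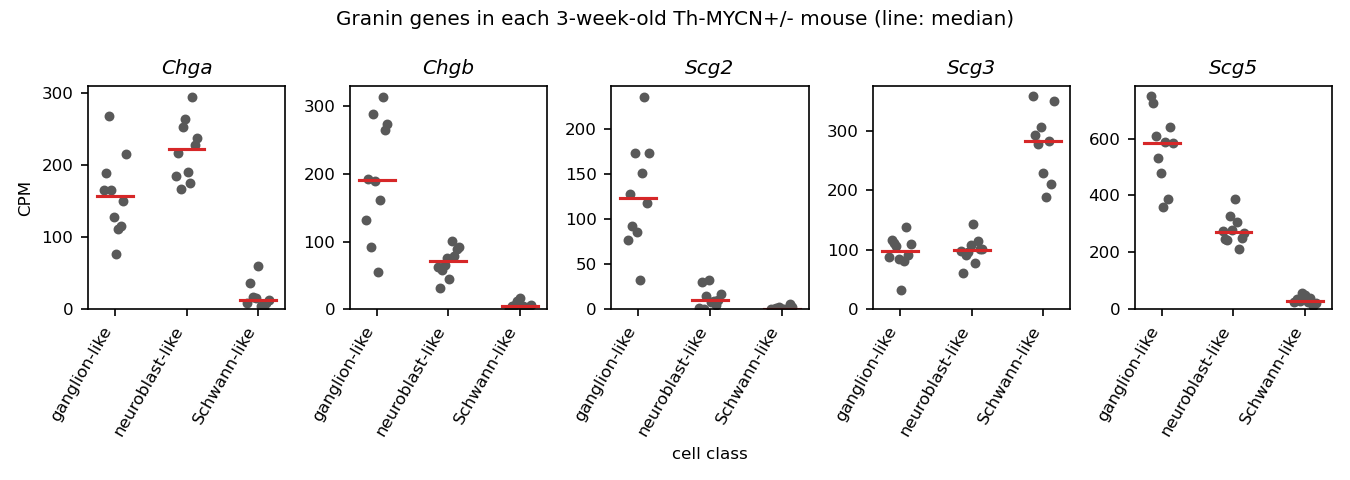
Level of the 5 granin and related genes (CPM) in each 3-week-old Th-MYCN+/- mouse by cell class (points, with the median as a line; Schwann-like without #2). Scg2 is highest in ganglion-like cells, Chga is shared by ganglion-like and neuroblast-like cells, and the Schwann-like values of Scg3 (189.6 to 359.0 CPM) lie above those of both other classes.

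The stretches before the start sites of these 5 genes, and of Syn1, are shown because the granin genes differed most in course and because they hold letters of the cyclic AMP response element (CRE, TGACGTCA), on which CREB-type factors act, or of the RE1 element, on which the repressor REST acts. Each is 250 bases, 5′ to 3′ up to the base before the start site (RefSeq, GRCm38.p6), with the matches that lie wholly inside it in capitals. The left arm of RE1 in Scg2 starts 7 bases before the start site and runs past the end of the stretch, so its first letters stand in lower case.
Chga, chr12:102554691-102554940, plus strand: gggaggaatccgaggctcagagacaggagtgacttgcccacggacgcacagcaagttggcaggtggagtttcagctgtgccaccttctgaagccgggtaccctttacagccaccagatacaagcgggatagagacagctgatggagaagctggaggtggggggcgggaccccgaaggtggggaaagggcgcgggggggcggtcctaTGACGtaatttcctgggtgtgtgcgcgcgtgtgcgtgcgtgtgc
Chgb, chr2:132781392-132781641, plus strand: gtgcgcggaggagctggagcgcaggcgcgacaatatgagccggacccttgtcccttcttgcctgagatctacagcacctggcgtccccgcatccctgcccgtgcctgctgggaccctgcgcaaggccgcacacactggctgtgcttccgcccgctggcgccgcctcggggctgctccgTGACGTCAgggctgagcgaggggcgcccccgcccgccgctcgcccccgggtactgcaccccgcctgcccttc
Scg2, chr1:79440027-79440276, minus strand: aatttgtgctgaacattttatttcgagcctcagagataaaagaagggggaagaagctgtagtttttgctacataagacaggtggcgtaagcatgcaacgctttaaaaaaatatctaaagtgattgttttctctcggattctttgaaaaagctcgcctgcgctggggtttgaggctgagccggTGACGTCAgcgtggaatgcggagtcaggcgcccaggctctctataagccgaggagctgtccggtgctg
Scg3, chr9:75684057-75684306, minus strand: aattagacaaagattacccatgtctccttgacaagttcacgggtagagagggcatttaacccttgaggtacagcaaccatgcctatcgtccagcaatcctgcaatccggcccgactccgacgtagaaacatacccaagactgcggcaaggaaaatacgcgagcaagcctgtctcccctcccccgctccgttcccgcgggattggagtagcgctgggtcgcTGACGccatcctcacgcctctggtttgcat
Scg5, chr2:113829092-113829341, minus strand: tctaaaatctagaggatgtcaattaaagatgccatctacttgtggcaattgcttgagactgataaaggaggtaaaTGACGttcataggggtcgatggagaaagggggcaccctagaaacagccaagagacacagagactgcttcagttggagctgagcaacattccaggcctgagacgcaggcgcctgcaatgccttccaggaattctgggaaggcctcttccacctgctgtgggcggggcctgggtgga
Syn1, chrX:20920919-20921168, minus strand: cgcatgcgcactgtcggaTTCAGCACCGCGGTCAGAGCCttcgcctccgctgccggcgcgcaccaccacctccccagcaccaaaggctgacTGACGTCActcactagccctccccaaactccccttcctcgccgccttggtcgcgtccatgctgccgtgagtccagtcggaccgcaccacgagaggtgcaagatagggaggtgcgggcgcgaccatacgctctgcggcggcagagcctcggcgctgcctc

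Promoters running from 250 bases before to 50 bases after the start were searched on both strands, and 32 of the 37 genes had an entry. TGACGTCA was present in 1.79% of all 32851 promoters, or in 2.03% of the 27025 genes they belong to, and in 4 of the 32 genes. It began 68 bases before the start in Scg2, 72 bases in Chgb, 159 bases in Syn1 and 7 bases in Napa. The shorter core TGACG, which TGACGTCA contains, was in 20.8% of all promoters (23.0% of genes) and in 15 of the 32 genes, among them Chga (44 bases before the start), Scg3 (30 bases) and Scg5 (175 bases). RE1 was searched by its 19 fixed letters, in arms parted by a gap of free bases, with at most 4 mismatches. It was found in 0.228% of all promoters (0.274% of genes) and, among these genes, in Syn1 (2 mismatches, 232 bases before the start) and Rph3a (3 mismatches, 96 bases before the start). Its left arm TTCAGCACC was exact in 0.371% of promoters (0.433% of genes) and in Scg2, Unc13a and Syn1, and its right arm GGACAGCGC in 0.405% (0.477% of genes) and in Unc13a. All 5 granin and related genes held at least the core, both those that were higher in ganglion-like cells (Scg2, Chgb, Scg5) and those that were not (Chga, Scg3). A match is a description of letters and was not tested as a site. Promoters of Snap25, Vamp2, Syt4, Syt5 and Syt7 were not analysed here.

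The RNAs of factors tied to such elements (Rest, its corepressor partners and Creb1), and that of Insm1, were read in the same sums. Rest was at 0.310 ± 0.463 CPM in neuroblast-like and 0.295 ± 0.622 CPM in ganglion-like cells but at 21.2 ± 11.3 CPM in Schwann-like and 29.5 ± 28.1 CPM in endothelial-like cells. Rcor2, a corepressor partner of REST, was higher in neuroblast-like cells than in ganglion-like cells in 10 of 10 mice (67.9 ± 21.6 against 16.3 ± 11.96 CPM, log2 fold change -2.60, FDR 1.7e-08). Insm1, a zinc finger factor of early neuroendocrine cells, was not tested in that comparison. It was higher in neuroblast-like than in Schwann-like cells by 5.28 (111 ± 110 against 4.16 ± 10.6 CPM, higher in 9 of 10 mice). Creb1 did not pass the test (-0.29, FDR 0.42), and Rest and Rcor1 had too few UMIs.

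How far members of the same gene family changed was described in 9 pairs, which were chosen with earlier results of these data known, so that no p is given. For each mouse the log2 ratio of ganglion-like to neuroblast-like CPM (10 CPM added to each) was taken for both genes. In the 6 pairs given next all 10 mice went the same way with 10 CPM added. Syt1 exceeded Syt11 by 3.00 ± 1.03 (mean ± SD, log2), Napb exceeded Napa by 2.40 ± 0.693, Cplx2 exceeded Cplx1 by 2.22 ± 0.701, Sncg exceeded Sncb by 1.98 ± 0.963, Syn2 exceeded Syn1 by 1.95 ± 0.596 and Sv2c exceeded Sv2a by 0.750 ± 0.569. With 1 CPM added in place of 10, Sv2c exceeded Sv2a in 8 mice and Sv2a exceeded Sv2c in 2. With 10 CPM added, Chgb exceeded Chga by 1.78 ± 0.918 in 9 of 10 mice. Rab3b exceeded Rab3a by only 0.245 ± 0.237 in 9 of 10 mice. Vamp2 against Vamp1 turned with the added constant and is given with the processing results.

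**Figure D5:**
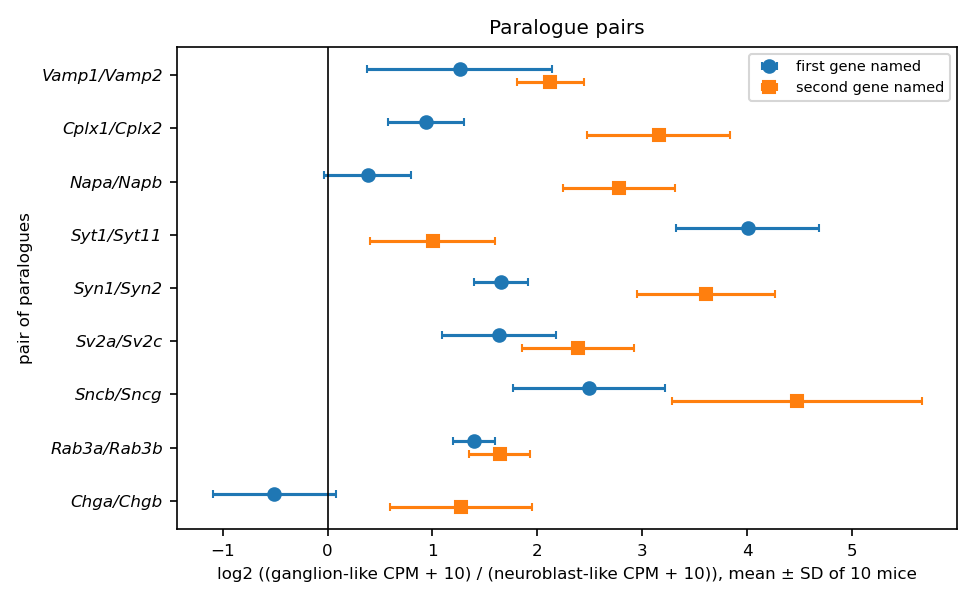
Log2 ratio of ganglion-like to neuroblast-like CPM (10 CPM added to each; mean ± SD of 10 mice) for the first gene (circles) and the second gene (squares) of 9 pairs. The gap is widest for Syt1/Syt11 and narrowest for Rab3a/Rab3b.

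Other genes of the same machinery were counted from lists that excluded the 37. Of 111, 80 were tested, 58 were higher in ganglion-like cells, 6 lower and 16 not called, with a median log2 fold change of 1.13, where 33.7% of all genes tested were higher and 34.2% lower. The subunits of the vesicular proton pump, which acidifies vesicles, were higher in 15 of 17, and other dense-core cargo and processing genes in 9 of 10 tested. The largest increases with the same sign in every mouse were those of the fast calcium sensor Syt2 (4.27), Rab3d (3.69) and Pacsin1 (3.50), an endocytic adaptor. The largest decreases were those of Sytl4 (granuphilin, a Rab27 effector of dense-core granules, -4.94, 9.48 ± 6.68 against 252 ± 50.6 CPM), the endophilin Sh3gl1 (-1.91) and the pump subunit Atp6v0e (-1.10).

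The Schwann-like cells, the glia of the ganglion, served as the comparison outside the neuronal lineage. Between ganglion-like and Schwann-like cells 26 of the 37 genes were tested, 25 were higher in ganglion-like cells and 1, Scg3, was lower. Of all 3144 genes tested 72.2% were called, 49.5% higher and 22.6% lower, and the median log2 fold change was 4.38 over the 26 genes and 0.44 over all (0.22 when scaled by total UMIs, 0.12 without #2). Without #2, 24 of 25 were higher and Scg3 remained lower, against 39.2% higher and 32.7% lower over all genes. Ganglion-like Scg3 (32.8 to 139.0 CPM) and Schwann-like Scg3 (189.6 to 359.0 CPM) did not overlap, and the log2 fold change was -1.33 (SE 0.17, FDR 4.6e-07), lower in 10 of 10 mice. Thinned to 500 UMIs, 13.5% of Schwann-like cells held a Scg3 UMI, against 6.03% of ganglion-like, 4.66% of neuroblast-like, 0.536% of endothelial-like and 0 of 200 macrophage-like cells, where 3 counts would be 1.5%. In the Schwann-like cells Chgb was at 5.57 ± 5.60 CPM, and Scg2 was at or under 6.13 CPM in the 3-week-old Th-MYCN+/- mice other than #2, where it was 1 UMI. In the WT mouse it was at 25.5 CPM (9.37 to 55.6, Poisson 95% interval, counting error only) from 6 UMIs.

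Neuroblast-like cells were then set against Schwann-like cells, to see which vesicle genes they already shared with neurons. Of the 37 genes 22 were tested, 16 were higher in neuroblast-like cells, 3 were lower and 3 (Syt11, Syp, Cplx2) were not called. Of all 5542 genes tested 68.8% were called, 37.3% higher and 31.5% lower. The median was 2.02 over the 22 genes and 0.10 over all (0.33 when scaled by total UMIs). Without #2, 18 of 24 were higher and 3 lower, against 36.3% and 34.2% of all genes. The largest increases were those of Chga (3.34, SE 0.30), Chgb (3.24, SE 0.31), Rab3c (2.97, SE 0.31), Scg5 (2.92, SE 0.20) and Snap25 (2.85, SE 0.22, FDR 4.2e-10). The Chga values of 166.5 to 294.5 CPM in neuroblast-like cells stood above all Schwann-like values but the 2 UMIs of #2. Vamp2 differed by 0.67, Syt1 by 1.63, and Napa by 0.36 (FDR 0.047), a call lost under 7 alternatives. Wider lists gave 23 higher, 20 lower and 15 not called of 58 tested. The endophilin Sh3gl2 (4.61), Sytl4 (4.48) and the clathrin adaptor Snap91 (3.11) led the increases, and Vamp8 (-7.16), Stx4a (-2.51) and Stx7 (-1.44), SNAREs of general and endosomal traffic, led the decreases.

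The 3 genes lower in neuroblast-like than in Schwann-like cells were Scg3 (-1.67, SE 0.15, FDR 2.0e-09, lower in 10 of 10 mice), Sv2c (-0.68, FDR 0.035) and Sncg (-1.68, SE 0.37, FDR 0.0004, lower in 9 of 10 mice). The Sv2c call was lost with DESeq2 (-0.46, FDR 0.22) and under 3 other alternatives. For Sncg the call held without #2 (-1.84), with free RNA subtracted (-2.08) and with cells thinned to 500 UMIs (-2.16). After thinning, 26.7% of Schwann-like cells held a Sncg UMI, against 5.96% of neuroblast-like, 93.9% of ganglion-like, 5.09% of endothelial-like and 1.5% of macrophage-like cells. The Sncg UMIs were unevenly spread over the neuroblast-like clusters, with 916 ± 582 CPM in the cluster led by Cartpt and 168 ± 166 CPM in the cluster led by Agtr2 and Dlk1 (9 mice, higher in 8). The Schwann-like level was 764 ± 300 CPM (n = 10), so the mean of the Cartpt cluster lay above it. The SDs overlap and the sets of mice differ, so the direction given for the class may not hold in all of its clusters.

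Sncg varied widely between mice in neuroblast-like cells. Its levels in mice #1 to #10 were 67.9, 865.1, 115.9, 467.0, 598.7, 203.7, 213.8, 51.5, 216.7 and 844.1 CPM. Npy, the neuropeptide Y gene that marks ganglion-like cells, was at 32.7, 772.4, 35.97, 430.5, 569.8, 167.6, 163.3, 19.4, 128.8 and 1222.2 CPM in the same sums. Both were high in #2, #4, #5 and #10 and low in #1, #3 and #8. The level that free RNA would add to Sncg was put at 59.98 CPM on average and 147 CPM at most, and with it subtracted the level was 310 ± 302 CPM (n = 10). The part of ganglion-like RNA in the Sncg of neuroblast-like cells beyond that estimate was not tested.

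Within a class the clusters differed in a few of the genes, here only described because the clusters come from the same cells. The share of all genes that differed in every mouse between the same clusters was not computed. The genes named here therefore have no background to be set against. Of the neuroblast-like clusters, 1 held cycling cells led by Ccnb1 and Cdk1, 1 was led by Agtr2 and Dlk1, and 1 by Cartpt and Nhlh2. Summed levels were 3349 ± 989, 3765 ± 417 and 5709 ± 1658 CPM. Chga was 167 ± 34.7 CPM in the cycling cluster and 318 ± 107 CPM in the Dlk1 cluster of the same 9 mice, lower in all 9, and so were Chgb (54.0 against 110 CPM), Scg5, Rab3a and Syt5. Of 3 chromaffin cell markers, Pnmt moved with them, at 38.0 ± 24.1 against 92.7 ± 18.3 CPM (lower in 9 of 9 mice), and was among the leading genes of the Dlk1 cluster. Slc18a1 was at 2.16 and 2.45 CPM and Penk had no UMI in either, and the summed markers were at 40.2 ± 25.7 against 95.2 ± 17.6 CPM. Their part in the result was not tested. The Cartpt cluster had more Syn2 (243 ± 123 against 86.9 ± 35.8 CPM) and Pclo (62.5 against 22.4 CPM) than the Dlk1 cluster in 9 of 9 mice, and less H_MYCN (211 against 439 CPM). Against the cycling cluster of the same 10 mice it had more Slc18a1 (16.9 ± 17.7 against 1.94 ± 4.09 CPM, higher in 7 and lower in 0). Its summed chromaffin markers were higher than in the cycling cluster too (113 ± 78.7 against 36.2 ± 27.4 CPM, higher in 8 and lower in 1). The Dlk1 cluster, against which Syn2 and Pclo were compared, had 95.2 ± 17.6 CPM of these markers in 9 mice, within that SD. The part of these markers in the levels of the Cartpt cluster was not tested. Among ganglion-like clusters the summed levels were 18359 ± 1220 (6 mice), 16951 ± 2001 and 18465 ± 1901 CPM (9 mice). The median depth ran from 515 to 14236 UMIs per cell. In the same 9 mice the shallow cluster was at 16761 ± 2024 CPM and the deep cluster at 18465 ± 1901 CPM, with the shallow cluster lower in 7. The cluster at 18359 CPM took 86.4% of its cells from #2.

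Conditions were set side by side without a test, since the WT mouse and the 6-week-old mouse were 1 animal each. Their values carry Poisson 95% intervals, which cover counting error only. In WT ganglion-like cells (89 cells) the sum was 20157.8 CPM (19681.8 to 20642.4), inside the range of the 10 Th-MYCN+/- mice at 3 weeks. Vamp2 lay above all 10 with its whole interval (1583.8 CPM, 1452.5 to 1723.9, against at most 1334.1). Stx1a (204 CPM, 159 to 259, against at most 187), Syn1 (255 CPM, 204 to 314, against at most 220) and Sncb (787 CPM, 696 to 888, against at most 718) lay above all 10 by their values, and Nsf (26.6 CPM, 12.2 to 50.6, from 9 UMIs, against at least 30.2) below, but these 4 intervals reached into the range of the 10 mice. Of the 7065 background genes 8.34% lay above all 10 and 6.88% below, and of the 35 vesicle genes among them 4 and 1. WT Chga (157 CPM), Scg3 (94.7 CPM), Snap25 (1841.4 CPM) and Sncg (6456.8 CPM) were inside the range. The 31 neuroblast-like barcodes of the WT mouse held 11981 UMIs, 10 of them of the 37 genes and none of H_MYCN. That share lay below every neuroblast-like sum at 3 weeks, and the barcodes were too sparse to describe gene by gene.

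In the ganglion-like cells of the 6-week-old tumour-bearing mouse (146 cells) the sum was 21231.8 CPM (20994.2 to 21471.3), slightly above the highest of the 10 younger mice. Sncg, at 7518.3 CPM (7377.2 to 7661.4), and the scarce Rph3a (26.4 CPM, 18.7 to 36.3, against at most 21.95) were above all 10 by their values, with intervals that reached into their range, and none of the 37 was below. Over the background genes 3.26% lay above and 2.46% below. In its 252 neuroblast-like cells the sum was 4670.9 CPM (4572.1 to 4771.3), inside the range of the 10 younger mice. It depended on the processing. It was above the mean of the 10 younger mice as first computed (3784.4 CPM) and at clustering resolution 0.2 (7495.4 against 4073.5 CPM), but below it after thinning to 500 UMIs (3032.5 against 3616.1 CPM). Sncg (915 CPM, 871.6 to 960.1, against at most 865.1) lay above all 10, as did Napb (62.7 CPM, 51.7 to 75.3) and Synj1 (14.8 CPM, 9.78 to 21.6), whose intervals reached into their range, and Chga (143 CPM, 127 to 162, against at least 167) below all 10, where 5.34% and 6.28% of background genes did. Npy was at 1395.9 CPM in the same sum, above the 10 younger mice as well, and its part in the result was not tested. In no gene of the 37 did the difference between the 6-week-old classes run against every mouse at 3 weeks.

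In Schwann-like cells the WT sum was 2195.4 CPM (348 cells) and the 6-week sum 2799.8 CPM (340 cells). The WT sum lay inside the range of the 10 mice. The 6-week sum lay above every mouse at 3 weeks (at most 2626.4 CPM) but #2 (4358.8 CPM, from 19 UMIs in 8 cells). WT Napa was at 494 CPM (408 to 592) against at most 229 CPM in the 10 mice, and Dnm1 (8.51 CPM, 1.03 to 30.7, 2 UMIs, against at most 6.39) was above them by its value only, where 7.54% of 3144 background genes lay above and 2.74% below. At 6 weeks Cplx2 (91.7 CPM, 66.9 to 122.7, against at most 70.7) was above all 10 by its value, with an interval that reached into their range. Sncg (1440.7 CPM, 1336.4 to 1550.9) was also above all 10 by its value. Its interval reached only the 1376.5 CPM of #2, from 8 cells, and lay wholly above the other mice at 3 weeks. Of the background genes 2.80% lay above all 10 and 2.45% below. Scg3 remained inside the range in both mice, at 243 and 332 CPM.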

How the data were processed

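The deposited values are raw UMI counts that the authors made for each barcode from Chromium 3' libraries of 12 superior mesenteric ganglia with Cell Ranger 3.0.2 (file header) on mm10 with human MYCN added and without selection of barcodes. Each replicate is a separate mouse, and the labels give no batch. Gene positions came from GENCODE vM21 and promoters from RefSeq, both GRCm38.

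Cells were called with an implementation of EmptyDrops (100 UMIs or fewer as empty droplets, 10000 draws, FDR 0.01), which on simulated data for the WT library called 276 of 300 shallow cells and 1 of 1500 empty droplets. Barcodes below 200 genes, above 10% mitochondrial UMIs or above 60% ribosomal UMIs were dropped. Clusters (Seurat 5.3.0, sctransform 0.4.2, R 4.3.3, resolution 0.5) were built without 157 genes, among them the 37 described and the wider vesicle lists. With these kept, 98.7% of cells had the same class. Class names rest on markers listed by the study, which called them on these samples, or known from textbooks. Scrublet (scanpy 1.11.5) marked 0.449% of cells. How many doublets it missed was not checked, and the marked cells were kept. An alternative left out the 454 cells with the highest scores in their libraries.

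UMIs were summed per mouse and class (at least 5 cells) and tested with edgeR 4.0.16 (TMM, filterByExpr, quasi-likelihood test, mouse as block, Benjamini-Hochberg FDR 0.05). Classes of the same animal are paired by design; the correlation of their deviations ran from -0.005 to 0.268 for ganglion-like and neuroblast-like sums. On simulated data with a log2 change of 1.5 edgeR called 177 of 183 changed genes for ganglion-like against neuroblast-like cells. It called 181 of 181 for ganglion-like against Schwann-like and 173 of 174 for neuroblast-like against Schwann-like cells. False calls were 2, 1 and 7 in that order. Each simulation changed 200 genes, far fewer than were called in the data, and both classes of a mouse shared its deviation. The false calls may therefore not carry over to these data. The SE given with an edgeR fold change is its absolute log2 value divided by the square root of the test's F statistic. DESeq2 1.42.0 was an alternative. Planned exact sign-flip tests of the paralogue pairs were run but are not reported, because of how the pairs were chosen. Other steps used Python 3.11.15, numpy 2.4.6, scipy 1.17.1, pandas 2.3.3; plots used matplotlib 3.10.9. Free RNA per library was gauged from Npy, Dbh and Th in endothelial-like and macrophage-like cells.

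The 37 genes, the lists and the pairs were chosen with earlier results of these data known. Named in full were genes at 100 CPM or more in either class and those against the common direction, and from the wider lists the 3 largest changes each way with 1 sign in every mouse.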

Additional observations from a re-analysis of the deposited data

Results flagged for a closer look

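Of 47 groups of values from the 10 mice at 3 weeks, 8 had a single value set apart from the rest, where chance gives about 1 in 20. In #7 ganglion-like Syt9 was at 606 CPM (next highest 101 CPM), with 92 of 120 UMIs in 1 of 40 cells, and ganglion-like Syt5 was at 470 CPM (next highest 305 CPM), with 54 of 93 UMIs in 1 cell. Ganglion-like Syp was at 407 CPM in #1 (15 of 37 UMIs in 1 cell) and ganglion-like Rab3c at 471 CPM in #8 (50 of 78 UMIs in 1 cell). Neuroblast-like Rab3c was at 212 CPM in #7, with 57 of 109 UMIs in 1 of 110 cells. Neuroblast-like Sncb was at 216 CPM in #2, from 7 UMIs in 7 cells. Schwann-like Vamp2 (688 CPM, 3 UMIs) and the Schwann-like sum of all 37 genes (4359 CPM, 19 UMIs) were set apart in #2, where that class held 8 cells.

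The vesicle genes were also present in cells that entered no comparison. In the large unnamed cluster of shallow cells led by Snrpf and Mcm7 their summed level was 5432 ± 3120 CPM (n = 10 mice), and in a small unnamed cluster led by Snhg11 it was 3775 ± 1716 CPM (n = 6 mice), against 719 ± 372 CPM in endothelial-like cells.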

How the results depend on the processing

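Most calls kept their direction and side of the threshold. With cells thinned to 500 UMIs, and shallower cells left out, fewer genes could be tested. For ganglion-like against neuroblast-like cells edgeR then called 14 of 16 vesicle genes higher and 0 lower (0 at an unadjusted p under 0.05), and 853 of 1320 genes in all, 30.5% higher and 34.2% lower. For ganglion-like against Schwann-like cells it called 12 of 13 higher and 613 of 900 genes in all (42.2% higher, 25.9% lower), and for neuroblast-like against Schwann-like cells 5 of 10 higher and 1336 of 1745 genes in all (39.9% higher, 36.6% lower). Without a filter on low counts more were tested, and 7938, 6970 and 7821 genes were called in the 3 comparisons (41.5%, 38.8% and 41.9%), with 28 of 37 vesicle genes higher in neuroblast-like than in Schwann-like cells, where 23.2% of all genes were.

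Direction turned for Scg3 between ganglion-like and neuroblast-like cells at clustering resolution 1.0 (0.065), and for Syt11 between neuroblast-like and Schwann-like cells with DESeq2 (0.054), total UMIs (0.087) and no filter (0.17); none was called. The difference between Vamp1 and Vamp2 was -0.86 with 10 CPM added and 0.28 with 1 CPM added, as Vamp1 was at or near 0 in many sums. The cause of the other turns was not tested.

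The summed level at 6 weeks moved beyond counting error. In ganglion-like cells it was 20157 CPM after thinning and 21527 CPM at resolution 0.2. In neuroblast-like cells it was 3032.5 CPM after thinning, 4266.3 CPM without the highest Scrublet scores, 7495.4 CPM at resolution 0.2 and 4324.5 CPM at resolution 1.0.

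Without the replicate block the counts of vesicle genes were 33 higher and 1 lower, 25 higher and 1 lower, and 15 higher and 3 lower in the 3 comparisons, where 34.1%, 47.9% and 36.7% of all genes were higher and 34.1%, 22% and 31.8% lower, and the block changed the call of Napa only (neuroblast-like against Schwann-like, 0.33, FDR 0.075). With the shallow unnamed cluster counted as neuroblast-like, an alternative chosen after seeing the data, 32 of 34 were higher and 1 lower in ganglion-like cells, against 31.6% and 36.6% of all genes. Intervals cover counting error only, and 15 of the 37 genes did not pass the filter on low counts for neuroblast-like against Schwann-like cells.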
